A study of Homo sapiens with 14 samples.

Results

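ELF5 and EHF are neighbouring genes on chromosome 11, and the progesterone receptor (PR) regions and POLR3A regions around both are described here. The genes were taken by name, and all regions that reached the gene span or the 50 kb on either side by at least 1 bp were counted. In the GRCh38 gene table, ELF5 (gene ID 2001) spans chr11:34478791-34513794 on the minus strand, and EHF (gene ID 26298) spans chr11:34621093-34663288 on the plus strand. The windows held 140 of 227513 regions in 4 lists: 32 of 38933 for PR under vehicle, 60 of 111515 for PR under progesterone (P4), 13 of 29161 for POLR3A under vehicle and 35 of 47904 for POLR3A under P4.

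The regions come from chromatin immunoprecipitation sequencing of T47D, an established breast cancer line described as positive for oestrogen and progesterone receptors. Cells received ethanol, the vehicle, or P4 for 1 h, and there were 3 replicate libraries for PR and 3 for POLR3A, which is the biggest of the RNA polymerase III subunits, under each treatment. With 1 pooled input per treatment that makes 14 libraries, and all cells were kept in a medium with serum and insulin, whose own hormone content was not analysed here. Each group of 3 libraries has 1 peak list, so no value per replicate was used, no difference below could be set against the spread between replicates, and none was tested. The lists measure occupancy, so neither the RNA of ELF5 or EHF nor the identity of the cells could be checked in them.

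ELF5 and EHF encode transcription factors of the ETS family, whose shared DNA-binding domain reads a GGAA core. With ELF3 and SPDEF they are the members known for expression in epithelia. In the mammary gland, ELF5 drives the luminal progenitor towards the milk-secreting alveolar cell downstream of progesterone and prolactin, and it is known as a progestin-induced gene in breast cancer cells. PR is a nuclear receptor that binds hormone response elements, often at enhancers far from gene starts. RNA polymerase III makes transfer RNA and other small RNAs, and neither gene is among its known transcripts.

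The 2 genes lie back to back. Their gene spans are 107 kb apart with their 5′ ends facing each other, and a long non-coding RNA gene, LINC02707, starts in between. The windows do not overlap and leave 7.30 kb between them. The nearest other protein-coding genes are CAT, which encodes catalase, ABTB2 and NAT10 beyond ELF5 and APIP, PDHX and CD44 beyond EHF. CAT ends 6.73 kb from ELF5 and lies wholly inside the ELF5 window, so regions at CAT count there. APIP starts 219 kb beyond EHF.

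The 4 start windows below, of 300 bases each from RefSeq (build GRCh38.p14, 250 bases before the listed start to 50 after it), are shown because the lists differ between them. Each is written 5′ to 3′ along its gene. Capitals mark matches to a forkhead motif, TGTTTAC, or a GATA motif, AGATAA, on either strand. The ELF5 start, chr11:34511675-34511974 on the minus strand, was overlapped by no region of any list.
ELF5 start: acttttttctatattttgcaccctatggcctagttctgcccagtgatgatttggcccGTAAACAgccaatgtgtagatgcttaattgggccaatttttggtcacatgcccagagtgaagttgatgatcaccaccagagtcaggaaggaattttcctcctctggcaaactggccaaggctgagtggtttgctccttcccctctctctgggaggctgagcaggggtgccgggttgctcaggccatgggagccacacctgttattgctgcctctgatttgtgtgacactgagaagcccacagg
The first EHF start, chr11:34624007-34624306 on the plus strand, was also overlapped by no region.
EHF first start: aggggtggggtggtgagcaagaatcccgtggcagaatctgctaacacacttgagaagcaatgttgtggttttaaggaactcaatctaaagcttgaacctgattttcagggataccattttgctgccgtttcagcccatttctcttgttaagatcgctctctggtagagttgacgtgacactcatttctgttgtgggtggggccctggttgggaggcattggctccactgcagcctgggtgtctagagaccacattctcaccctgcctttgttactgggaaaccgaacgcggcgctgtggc
The second EHF start, chr11:34632316-34632615 on the plus strand, was overlapped by PR regions under both treatments and by a POLR3A region under P4.
EHF second start: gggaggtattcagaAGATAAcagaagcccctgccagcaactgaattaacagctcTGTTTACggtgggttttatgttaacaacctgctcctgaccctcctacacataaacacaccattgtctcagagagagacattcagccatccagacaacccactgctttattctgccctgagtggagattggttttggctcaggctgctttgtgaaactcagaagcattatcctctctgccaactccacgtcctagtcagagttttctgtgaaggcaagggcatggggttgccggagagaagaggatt
The LINC02707 start, chr11:34570645-34570944 on the plus strand, was overlapped by a region of all 4 lists.
LINC02707 start: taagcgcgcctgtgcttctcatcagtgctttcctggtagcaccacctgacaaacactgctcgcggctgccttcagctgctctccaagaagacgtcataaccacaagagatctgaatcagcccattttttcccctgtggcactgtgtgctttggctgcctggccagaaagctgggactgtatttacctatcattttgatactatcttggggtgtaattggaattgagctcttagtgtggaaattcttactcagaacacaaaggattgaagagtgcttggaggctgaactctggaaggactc

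Among 34961 such windows over the genome, 6.36% were overlapped by a PR region under vehicle, 19.1% by a PR region under P4, 13% by a POLR3A region under vehicle and 12.3% by a POLR3A region under P4. The forkhead motif occurred once in the ELF5 window, on the opposite strand 193 bp before the listed start, and once in the second EHF window, 196 bp before it. Of all windows, 3.42% hold it. The GATA motif occurred once in the second EHF window, 236 bp before the start and 63 bp from the PR summit under P4, against 10.3% of all windows. The core of the hormone response element, ACANNNTGT, was in none of the 4 windows and is in 5.36% of all. An ETS motif, GGAAG, which is a longer form of the GGAA core, occurred 2 times at ELF5, once at LINC02707 and at neither EHF start. Of all windows, 71.9% hold it. The shorter GGAA core was not counted, and the first EHF window as printed holds it. The B box of RNA polymerase III promoters, GTTCNANNC, was in none of the 4 windows and is in 7.46% of all. Both strands were searched, and no 2 matches in these windows overlapped.

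The first comparison asked how PR occupancy around the 2 genes differed between vehicle and P4. ELF5 had fewer PR regions than EHF in both lists, and both genes had more than the median protein-coding gene. The ELF5 window held 6 PR regions under vehicle and 22 under P4. The EHF window held 26 under vehicle and 38 under P4. A PR region within 50 kb was present at 74.6% of the 19817 protein-coding genes under vehicle and at 90.5% under P4, so presence alone did not set the members apart. Per 100 kb of window, ELF5 had 4.44 and 16.3 PR regions and EHF had 18.3 and 26.7, against a median of 1.51 and 5.28 over all protein-coding genes. Among those genes ELF5 lay at percentile 80.6 under vehicle and 85.5 under P4, and EHF at percentile 99.7 and 96.0.

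The lists differ in length, which bears on these counts. Taking only the 38933 regions with the highest −log10 q (the authors' false discovery value, larger meaning more significant) from each PR list left 6 and 10 regions at ELF5 and 26 and 18 at EHF, so that at EHF the P4 list then held fewer. Regions with −log10 q of at least 5 numbered 2 and 13 at ELF5 and 14 and 24 at EHF. Over the whole PR lists, 55.7% of vehicle regions and 49.5% of P4 regions reached that value. Chromosome 11 was dense in all lists and carried 7.93% of the PR P4 regions with 1297 of the 19817 genes. Against the genes of chromosome 11 alone, ELF5 lay at percentile 67.0 and 70.7 and EHF at 99.0 and 86.7. The number of copies of chromosome 11 in T47D was not measured here.

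**Figure D1:**
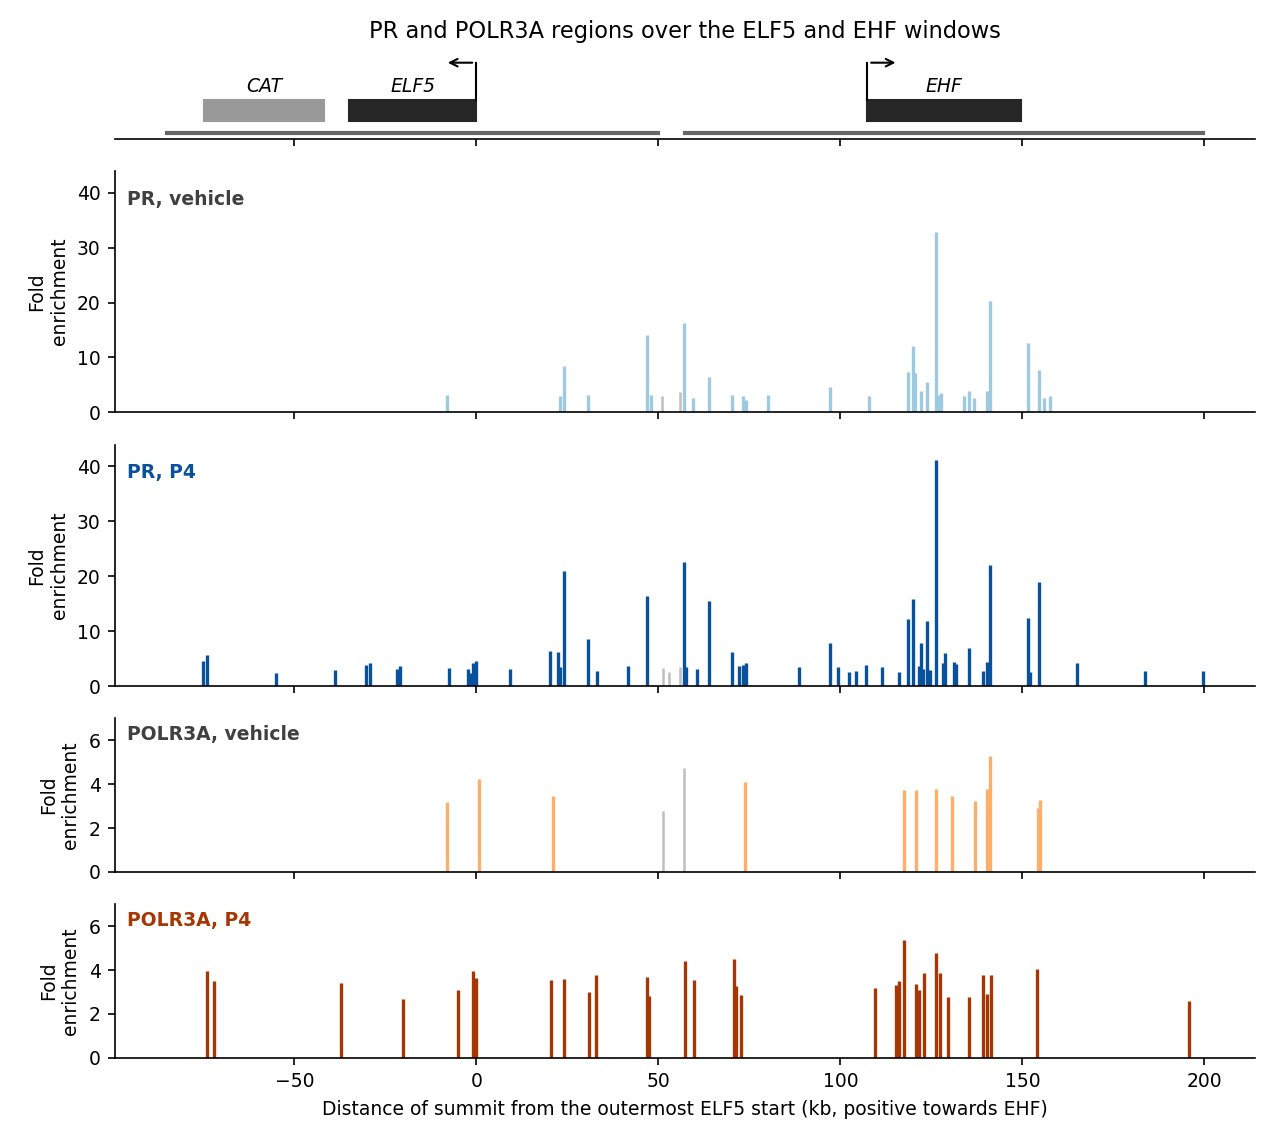
Fold enrichment of each region (vertical axis, linear, 1 panel per list) against the distance of its summit from the outermost ELF5 start in kb, positive towards EHF. Boxes are gene spans, arrows give the direction of ELF5 and EHF, horizontal bars are the 2 windows and grey lines are regions wholly between the windows. PR regions cluster inside EHF under both treatments, and ELF5 has 1 PR region inside the gene under vehicle and 9 under P4.

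**Figure D2:**
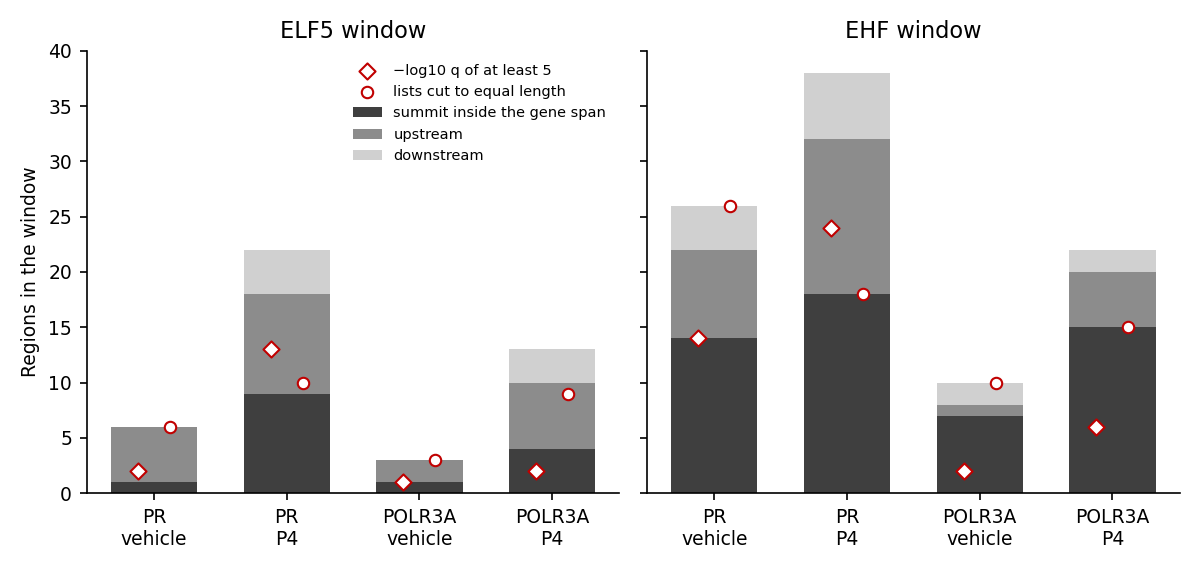
Number of regions (vertical axis) in the ELF5 and EHF windows for each list, stacked by the position of the summit relative to the gene span, with diamonds for regions of −log10 q of at least 5 and circles for lists cut to equal length. At EHF the circle for PR falls from 26 under vehicle to 18 under P4, and at ELF5 it goes from 6 to 10.

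PR regions at ELF5 lay mostly upstream of the gene under vehicle. Of the 6 vehicle regions, 5 were upstream and 1 was inside the span. Under P4, 9 were upstream, 9 inside and 4 downstream. The gene span is 35.0 kb of the window. They covered 2.21 kb of the 135 kb window under vehicle and 9.01 kb under P4. Their fold enrichment over background, the authors' ratio, had a lowest value of 2.96, a median of 3.21 and a highest of 14.0 in the vehicle list. In the P4 list these were 2.33, 3.77 and 21.0.

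The strongest ELF5 regions were far upstream, in the stretch between the genes. The highest −log10 q of the vehicle list, 81.5, belonged to chr11:34560494-34561226, with a fold of 14.0 and its summit 46.96 kb upstream of the outermost ELF5 start. In the P4 list the region there had −log10 q 86.9 and fold 16.5. The highest of the P4 list, 126, belonged to chr11:34537628-34538053, with a fold of 21.0 and its summit 24.04 kb upstream. The vehicle region there had −log10 q 27.0 and fold 8.47. The order of these 2 regions thus differed between the lists. Within a list, the fold of the nearer region was 0.605 times that of the farther one under vehicle and 1.28 times under P4, values with no replicate error. The summits of each differed by 6 bp or less between the lists.

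The other 3 of the 5 strongest ELF5 regions under P4 stood in the same upstream stretch. The region at chr11:34544302-34544814, 30.7 kb upstream, had −log10 q 34.7 and fold 8.56, with 3.52 and 3.22 for the vehicle region there. The region at chr11:34533917-34534342, 20.3 kb upstream, had −log10 q 21.9, and the one at chr11:34536130-34536352, 22.4 kb upstream, had 17.1. Neither had a vehicle counterpart. All 5 had their summits 20 kb or more from the gene.

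Around the ELF5 start itself PR regions were listed under P4 and none under vehicle. The region at chr11:34513429-34514259 covered the outermost start, with −log10 q 11.4 and fold 4.49. Weaker ones followed into the gene, at chr11:34512827-34513124 with −log10 q 7.69, at chr11:34512016-34512399 with 2.01 and at chr11:34511177-34511496 with 3.57. The last 2 flank the start window printed above, and the nearer one lies 42 bp from it. The nearest vehicle summit was 6131 bp into the gene from the listed start, in chr11:34505416-34505937 with −log10 q 2.99. The remaining vehicle regions, at chr11:34536614-34536804 and chr11:34561652-34561842, had 2.46 and 3.28. Deeper in the gene the P4 regions had −log10 q from 3.36 at chr11:34491768-34491972 to 7.76 at chr11:34484515-34484820. The median over the whole PR P4 list was 4.87.

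Part of the ELF5 count lay at CAT. The P4 regions at chr11:34438548-34438777, which reaches the CAT start window, and chr11:34438993-34439987, just inside that gene, had −log10 q of 9.50 and 15.3. Without regions at CAT or within 1 kb of it, the ELF5 window held 19 PR regions under P4 and 6 under vehicle.

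At EHF many of the PR regions lay inside the gene, whose span is 42.2 kb of the window. The share of all PR regions that lie inside gene spans was not counted. Of 26 vehicle regions, 14 had the summit inside the span, 8 upstream and 4 downstream. Under P4 these counts were 18, 14 and 6. The regions covered 14.3 kb of the 142 kb window under vehicle, 10.1% of it, and 20.8 kb or 14.6% under P4. The median step between neighbouring summits was 2.44 kb under vehicle and 2.14 kb under P4. For ELF5 it was 6.66 kb and 5.24 kb.

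The strongest region of the 2 windows lay inside EHF in both PR lists. At chr11:34639491-34640655 the vehicle region had −log10 q 254 and fold 32.8, rank 271 of its list. At chr11:34639519-34641171 the P4 region had −log10 q 314 and fold 41.2, rank 621. Its summit was 7.59 kb downstream of the second listed EHF start, and the summits of the 2 lists were 17 bp apart. By the highest −log10 q in the window, EHF lay at percentile 97.8 of protein-coding genes under vehicle and 94.7 under P4, and ELF5 at 87.5 and 78.0.

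A second strong region stood near the end of EHF. At chr11:34654575-34655653 it had −log10 q 152 and fold 22.1 under P4, and the vehicle region there had 111 and 20.3, with summits 5 bp apart. Downstream of the gene, chr11:34667525-34668868 had −log10 q 111 and fold 18.9 under P4, with 35.2 and 7.78 for the vehicle region. The region at chr11:34665036-34665447 had 58.4 under P4 and 57.6 under vehicle, with folds of 12.4 and 12.6, so its fold was the lower in the P4 list.

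At the second EHF start, a broad PR region covered the printed window. It ran over chr11:34631155-34632810 under vehicle, with −log10 q 29.5 and fold 7.43, and over chr11:34631110-34632825 under P4, with 49.4 and 12.1. The summits were 258 bp and 297 bp before the listed start, just outside the printed window. Close behind it, chr11:34633621-34634999 had −log10 q 86.5 under P4, and 2 vehicle regions within it had 50.8 and 21.2. At the first EHF start the nearest PR summits were 2626 bp upstream under vehicle, with −log10 q 2.61, and 1080 bp downstream under P4, with 4.37.

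The strong region at the LINC02707 start sits on the edge of the EHF window, and its summit is outside. Under vehicle it ran over chr11:34570161-34571245, with −log10 q 75.5 and fold 16.3, and under P4 over chr11:34570110-34571168, with 156 and 22.7. The summits were 65 bp and 59 bp before the LINC02707 start, 50.3 kb upstream of the outermost EHF start and 57.0 kb upstream of that of ELF5. At the far edge, a weak P4 region at chr11:34713244-34713646 with −log10 q 2.63 also had its summit outside. Counting summits only, EHF had 25 and 36 PR regions. The nearest PR region left out between the windows under P4, at chr11:34569600-34569828, had −log10 q 5.08.

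The share of PR regions found under both treatments was next compared. A vehicle region was overlapped by 4 of 22 P4 regions at ELF5, 18.2% (95% Wilson interval 7.31 to 38.5), and at EHF 17 of 38, 44.7% (30.1 to 60.3), against 25.8% of the whole P4 list. These intervals cover counting error over regions only, and neighbouring regions are not independent. The ELF5 window held 6 vehicle regions and the EHF window 26, which limits how many P4 regions could have a match. The share was higher among strong regions at both genes. Of P4 regions with −log10 q of at least 10, 3 of 7 at ELF5 and 13 of 14 at EHF had a vehicle counterpart, against 64.8% of the list. Of those under 10, 1 of 15 and 4 of 24 had one, against 11.1%.

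The ELF5 regions without a counterpart had a median −log10 q of 5.46 and reached 21.9, while the 4 with one had a median of 60.8. At EHF the 21 without a counterpart had a median of 4.59 and reached 16.3, and the 17 with one had a median of 49.4. From the vehicle side, 4 of 6 ELF5 regions and 18 of 26 EHF regions overlapped a P4 region, against 75.7% of the vehicle list. The vehicle regions that were not in the P4 list were weak, with −log10 q of at most 3.28 at ELF5 and 4.13 at EHF.

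Where both lists had a region, the P4 value was usually the larger, as it was over the genome. The −log10 q was higher in the P4 list for 4 of 4 matched regions at ELF5 and 16 of 17 at EHF, against 85.4% of all 28783 matched regions. The fold was higher for 4 of 4 and 15 of 17, against 80.1%. The lists were called separately and their depth is unknown, so these values do not measure a change in occupancy. Summits of matched regions were close, with a median offset of 26 bp at ELF5 and 39 bp at EHF.

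**Figure D3:**
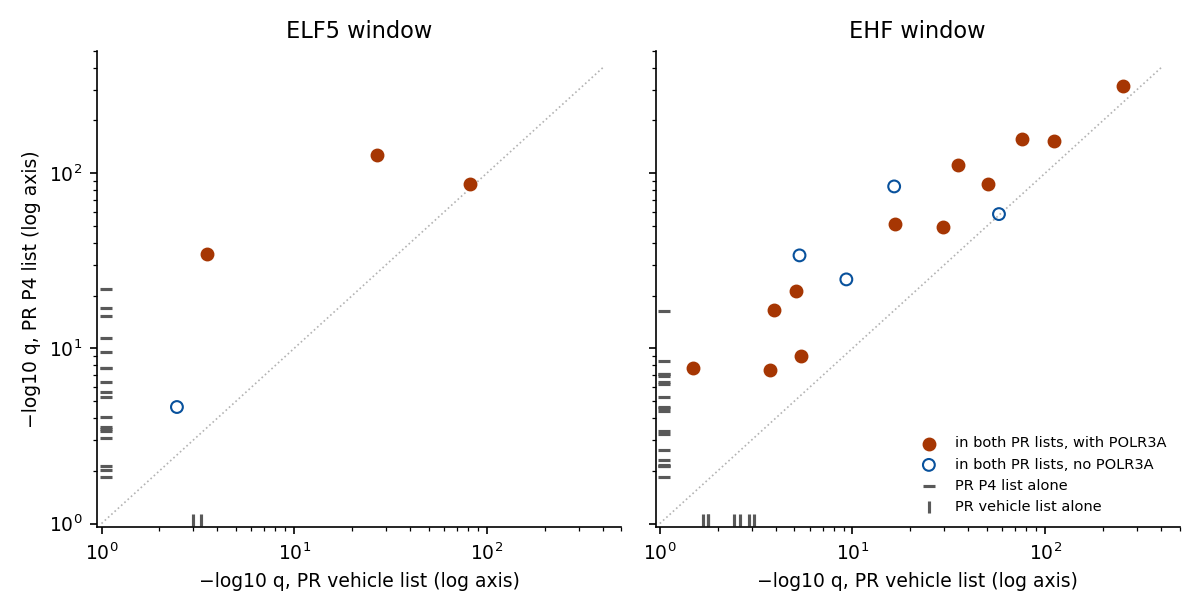
The −log10 q of PR in the vehicle list (horizontal, log axis) and in the P4 list (vertical, log axis) at each place where regions of the lists overlap, for the ELF5 and EHF windows, using the strongest region of a place. Filled points also have a POLR3A region, ticks on the axes are places in 1 PR list alone, and the dotted line marks equal values. EHF has a string of places up to 254 and 314, and the ELF5 places in the P4 list alone reach 21.9.

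The second comparison asked whether POLR3A, whose known targets are small RNA genes, was listed at the same stretch of chromatin and how this differed with P4. It was, with regions that were more numerous in the P4 list. ELF5 had 3 POLR3A regions under vehicle and 13 under P4, and EHF had 10 and 22. A POLR3A region within 50 kb was present at 68.7% of protein-coding genes under vehicle and 71.9% under P4. The density lay at percentile 66.2 and 87.1 of these genes for ELF5 and at 89.7 and 94.4 for EHF. Among genes of chromosome 11 alone it lay at percentile 54.4 and 72.2 for ELF5 and at 80.4 and 83.5 for EHF. Keeping the top 29161 regions of either POLR3A list gave 3 and 9 at ELF5 and 10 and 15 at EHF. In the full lists, 1 and 2 regions at ELF5 and 2 and 6 at EHF had −log10 q of at least 5. Over the genome, 27.5% of the POLR3A vehicle regions and 19.7% of the POLR3A P4 regions did.

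The strongest POLR3A regions had far lower values than the strongest PR regions, while the medians were closer. The median fold at ELF5 was 3.47 for POLR3A and 3.21 for PR under vehicle, and 3.54 and 3.77 under P4. At EHF it was 3.72 and 3.84 under vehicle, and 3.42 and 4.07 under P4. Over the whole lists the median fold was 3.50 and 3.78 under vehicle, and 3.28 and 3.55 under P4. The highest POLR3A −log10 q at ELF5 was 5.48 under vehicle and 6.09 under P4, and at EHF 9.20 and 10.1. Folds lay between 2.69 and 4.25 at ELF5 and between 2.60 and 5.37 at EHF. The strongest vehicle region was at chr11:34654875-34655249 inside EHF, and its summit was 1 bp from that of the strong PR region there. The strongest P4 region was at chr11:34631034-34632538, rank 2561 of its list. It overlapped the window of the second EHF start but ended before that start. Its own summit was 1223 bp before the start and 926 bp from the PR summit.

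At the strongest PR region, inside EHF, POLR3A was listed under both treatments. The vehicle region at chr11:34640073-34640481 had −log10 q 4.70, with its summit 8 bp from that of PR. The P4 region at chr11:34639754-34640443 had 8.33, with its summit 1 bp from that of PR. At the LINC02707 start POLR3A had −log10 q 6.75 under vehicle, at chr11:34570616-34570939, and 7.42 under P4, at chr11:34570726-34571393. The vehicle region there ends before the EHF window and is not in its count.

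At ELF5 the POLR3A regions of the 2 treatments did not coincide. Of 13 P4 regions, 0 had a vehicle counterpart, which allows a share of up to 23.1% by the limit of 3 counts. From the other side, 0 of 3 vehicle regions had a P4 one, where that limit is 100%. At EHF 8 of 22 P4 regions had a vehicle counterpart and 7 of 10 vehicle regions a P4 one. Over the whole lists these shares were 25.8% and 42%. The limits take neighbouring regions as independent, which they are not. With only 3 vehicle regions in the ELF5 window few matches were possible. Neither the limits nor the shares of 0 therefore set ELF5 apart. Around the ELF5 start the vehicle list had chr11:34514386-34514677, with −log10 q 5.48 and its summit 0.712 kb upstream. The P4 list had chr11:34513358-34513964 with 4.65 over the outermost start and chr11:34512828-34513038 with 6.09 inside the gene. The other vehicle regions, at chr11:34505588-34505801 and chr11:34534737-34534950, had 2.98 and 2.93. The first of them lay on the vehicle PR region inside ELF5, which had no P4 counterpart for either antibody.

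Under P4, most POLR3A regions at both genes overlapped a PR region by at least 1 bp. At ELF5, 8 of 13 P4 regions overlapped a PR P4 region, 61.5% (95% Wilson interval 35.5 to 82.3), and at EHF 18 of 22, 81.8% (61.5 to 92.7), against 50.5% of the list. With a reciprocal overlap of 50%, 5 at ELF5 and 6 at EHF remained. The intervals take neighbouring regions as independent, which they are not. PR P4 regions covered 6.67% of the ELF5 window and 14.6% of the EHF window. The share at genes of like coverage was not taken. Under vehicle, 1 of 3 and 9 of 10 POLR3A regions overlapped a PR vehicle region, against 32.3%. Under P4 the summits of overlapping POLR3A and PR regions were within 100 bp of each other for 4 of 8 at ELF5 and 4 of 18 at EHF. The median offsets were 103 bp and 337 bp.

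The ELF5 places with both antibodies under P4 were the CAT region, with POLR3A at −log10 q 5.38, the pair at the gene start, and the upstream regions. POLR3A had 3.83 at chr11:34534105-34534417, 4.31 at chr11:34537675-34538204 and 2.44 at chr11:34544651-34544922. On the farthest PR region it had 4.31 at chr11:34560174-34560819 and 2.66 at chr11:34560993-34561364. Thus 4 of the 5 strongest PR regions of ELF5 carried POLR3A under P4, all but the one 22.4 kb upstream. At EHF the POLR3A regions on PR under P4 ran from −log10 q 1.81 at chr11:34634771-34634961 to the 10.1 of the region overlapping the second start window. Among the stronger ones, chr11:34584141-34584630 upstream of the gene had 7.11, chr11:34654971-34655298 near its end had 6.10 and chr11:34667774-34668902 downstream had 5.75. Under vehicle, POLR3A at EHF had 5.70 at chr11:34587522-34587771, 4.60 at chr11:34634418-34634954 and 4.32 at chr11:34653963-34654268.

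From the PR side, 7 of 22 P4 regions at ELF5 and 17 of 38 at EHF overlapped a POLR3A P4 region, against 20.9% of the list. Under vehicle 1 of 6 and 9 of 26 did, against 24.2%. At ELF5 the PR P4 regions with POLR3A had a median −log10 q of 21.9 and the others 4.05. At EHF the medians were 16.6 and 6.29, and the strongest without POLR3A, chr11:34577432-34577758 upstream of the gene, had 84.0. The same medians were not taken over the whole lists, so they do not mark out these genes. Merged over the lists, EHF had 47 separate places, 6 of them in all 4 lists within the window, and ELF5 had 31 with 0 in all 4. The most frequent pattern at both was a PR P4 region alone, at 14 ELF5 and 15 EHF places. Patterns of places were not counted over the genome, so no background share stands beside them. The PR P4 list is the longest of the 4. Of all its regions, 25.8% overlapped a PR vehicle region and 20.9% a POLR3A P4 region.

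**Figure D4:**
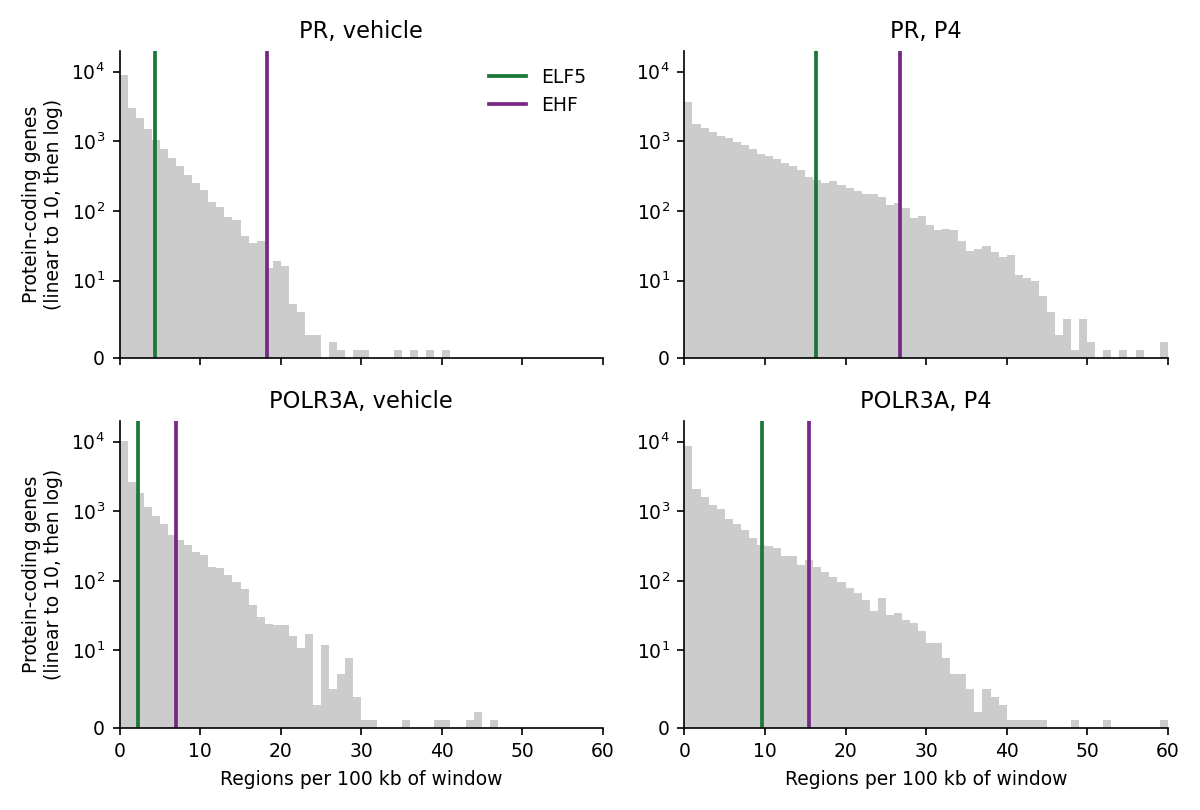
Regions per 100 kb of window (horizontal axis) over 19817 protein-coding genes, with the number of genes on a vertical axis that is linear to 10 and logarithmic above, 1 panel per list, and the last bar holding all genes at or above its start. Lines mark ELF5 and EHF, which stand at 4.44 and 18.3 in the PR vehicle list and at 16.3 and 26.7 in the PR P4 list.

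The other ETS genes place the 2 members among their family. All 28 listed ETS genes were found. PR regions were near 23 of 28 under vehicle, 82.1% against 74.6% of all protein-coding genes, and near 27 of 28 under P4, 96.4% against 90.5%. POLR3A regions were near 22 under vehicle, 78.6% against 68.7%, and near 24 under P4, 85.7% against 71.9%. The family's median density was 1.74 PR regions per 100 kb under vehicle and 6.55 under P4, against 1.51 and 5.28 over all protein-coding genes. For POLR3A it was 1.11 and 2.44, against 0.971 and 1.72. The windows of ETV3 and ETV3L overlap by 78618 bp, and those of ETS1 and FLI1 overlap by 2427 bp.

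EHF had the highest PR density of the family under vehicle and the third highest under P4, and ELF5 was the seventh and the sixth. The other epithelial members had fewer PR regions per 100 kb than EHF under vehicle and more under P4. SPDEF, the prostate-derived ETS factor, had 15 PR regions under vehicle and 46 under P4, or 12.7 and 38.8 per 100 kb. ELF3 had 12 and 34, or 11.3 and 31.9. Their strongest P4 regions had −log10 q of 258 and 45.1, below the 314 of EHF. POLR3A density under P4 was 22.8 per 100 kb at SPDEF, 15.5 at EHF, 14.1 at ELF3 and 9.63 at ELF5. SPI1, a blood-cell member, also ranked high, with 8.08 and 24.3 PR regions per 100 kb. Its POLR3A density under P4 was 17.0, above those of EHF, ELF3 and ELF5. At the other end, GABPA had 0 PR regions in either list and ELF4 had 0 and 1.

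**Figure D5:**
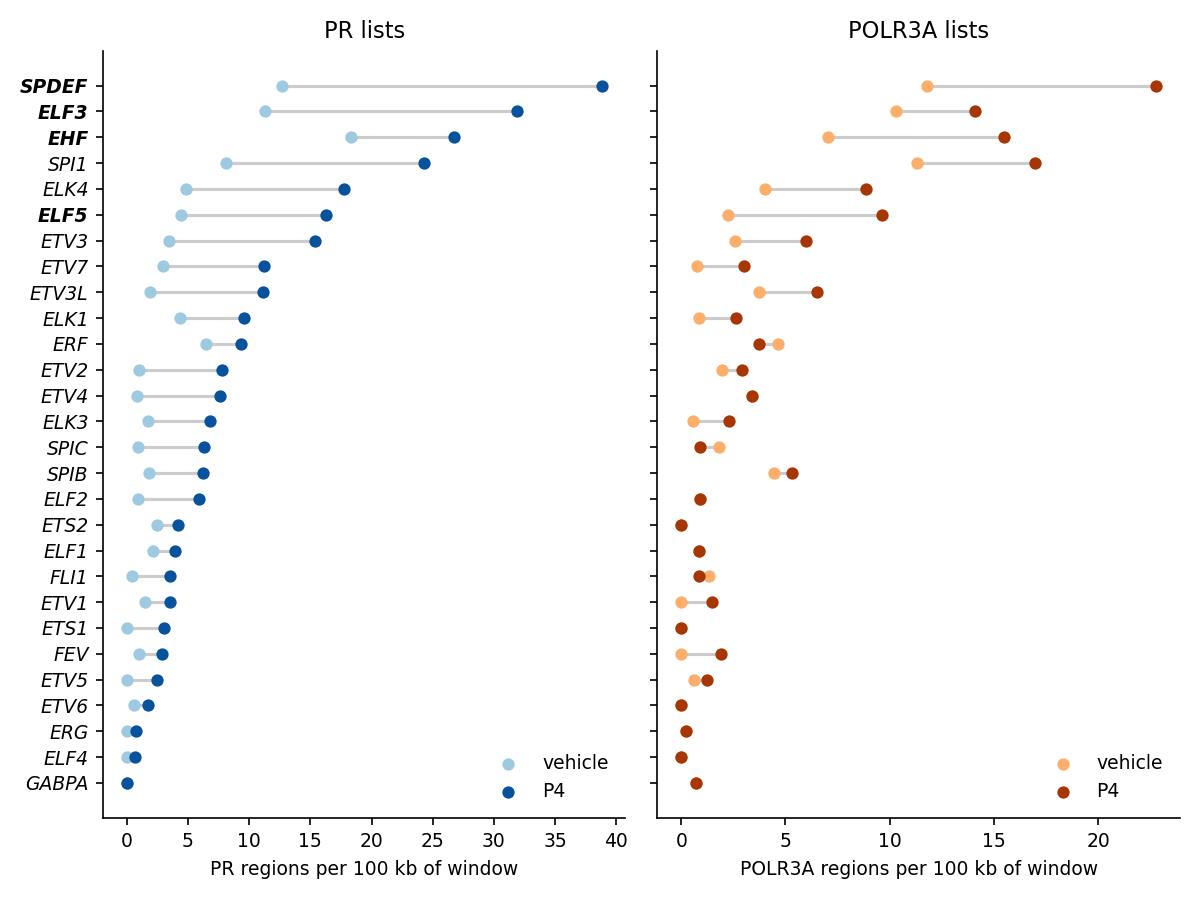
Regions per 100 kb of window (horizontal axis) for the 28 ETS genes in the PR lists and the POLR3A lists, light points for vehicle and dark points for P4, ordered by PR under P4, with the epithelial members in bold. SPDEF, ELF3 and EHF head the PR P4 order at 38.8, 31.9 and 26.7, and ELF5 stands sixth at 16.3.

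A list of 15 genes of the progesterone and prolactin programme of mammary alveolar cells, which includes ELF5, was set beside both members. PR regions were near 13 of 15 under vehicle, 86.7% against 74.6% of all protein-coding genes, and near 14 of 15 under P4, 93.3% against 90.5%. The median number of PR regions was 5 and 12, against 2 and 8 over all protein-coding genes. Per 100 kb of window the median was 2.73 and 6.68 PR regions, against 1.51 and 5.28. POLR3A regions were near 9 of 15 under vehicle, 60% against 68.7%, and near 10 of 15 under P4, 66.7% against 71.9%. Their median density was 0.803 and 0.977 per 100 kb, against 0.971 and 1.72. PRLR, the prolactin receptor, had 29 and 84 PR regions, with the strongest at −log10 q 342 under P4. STAT5A, which carries the prolactin signal to the nucleus, had 6 and 14, and its strongest P4 region reached 378. The same highest value stands for STAT5B, another gene of the list, whose span overlaps that of STAT5A. GATA3, a luminal transcription factor, had 15 and 26. TNFSF11, which encodes the paracrine signal RANKL, had 3 and 5, and WNT4 had 1 and 6. By density under P4, ELF5 was the fourth of the 15. CALCA had 0 regions in all 4 lists.

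Genes with counts most like those of each member were sought among protein-coding genes whose span was within 1.5 times the member's. Likeness was the summed absolute difference in log2(regions + 1) over the 4 lists. For ELF5, among 4209 genes, the nearest were LHX6 at 0.22, MIGA2 at 0.32, KCNJ10 at 0.44, EFCAB12 at 0.45 and SNX19 at 0.47. For EHF, among 4058 genes, they were MDM4 at 0.76, SEMA4B at 0.85, HIP1R at 0.91, TMEM45B at 0.95 and NFRKB at 0.99. None of the 5 EHF neighbours had more than 20 PR regions under vehicle, against 26 at EHF.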

How the data were processed

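The deposited files are 4 peak lists in narrowPeak form, 1 each for PR and POLR3A under vehicle and P4, each shared by 3 replicate libraries. The submitters' processing notes name cutadapt, Bowtie2, MACS2 and the build hg38. How replicates were combined, the control and the threshold are not given in the sources used here. The files have no header and were read in narrowPeak order. The fold enrichment, a ratio, the −log10 q, and the narrowPeak score, which holds the whole part of 10 times −log10 q, are the authors' values as deposited. The highest q-value was 0.0497. The files hold no counts of reads, so depth is unknown.

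Regions on chromosomes 1 to 22 and X were used. Genes came from the RefSeq table of GRCh38.p14, of which 58415 in order of position were kept, leaving out rows after a fall in start position on a chromosome, and strands and start windows from its promoter table. The table gives no exons, so positions are stated as inside or outside the gene span. Regions counted as shared from 1 bp. Python 3.11.15, pandas 2.3.3 and scipy 1.17.1 were used, and overlap code was tested on simulated data against bedtools 2.31.1. Alternatives were −log10 q of at least 5, lists of equal length, a 10 kb flank, summits in the window, 50% reciprocal overlap and summits within 100 bp. The rule for regions to describe took the 5 with the highest −log10 q per gene and list and the places with both antibodies under P4, of which some at EHF are given by their range. Regions at starts and window edges and some weaker ones were named after their values were seen. The members, gene lists and motifs were chosen with earlier results of these data known. A search for motifs at summits away from listed starts was not run, since a genome sequence was not used here.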

Additional observations from a re-analysis of the deposited data

How the results depend on the processing

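Of 64 values under alternative settings, 35 stayed within 1.5 times the value given above and 29 did not. No paired analysis was possible because the replicates of a group share 1 peak list, and for the same reason no replicate could be left out. With −log10 q of at least 5, PR regions numbered 2 (vehicle) and 13 (P4) at ELF5 and 14 and 24 at EHF, and POLR3A regions 1 and 2 at ELF5 and 2 and 6 at EHF. Lists of equal length gave 10 PR regions at ELF5 and 18 at EHF under P4, the latter below the 26 of vehicle. With a 10 kb flank ELF5 had 1 PR region under vehicle, 11 PR regions and 5 POLR3A regions under P4, and EHF had 25 PR regions under P4. With −log10 q of at least 5 in both lists, 2 PR P4 regions at ELF5 had a vehicle counterpart. Of POLR3A P4 regions, 2 at ELF5 and 6 at EHF then had PR, and 2 at EHF had a POLR3A vehicle region. Of POLR3A vehicle regions, 0 at ELF5 and 1 at EHF had PR. With a reciprocal overlap of 50%, POLR3A P4 regions with PR fell to 5 at ELF5 and 6 at EHF, those at EHF with a vehicle region to 3, and POLR3A vehicle regions with PR to 0 at ELF5 and 1 at EHF. With summits within 100 bp the POLR3A P4 regions with PR were 4 at ELF5 and 4 at EHF, those at EHF with a vehicle region 3, and the vehicle regions at EHF with PR 2. A stricter threshold, a shorter list, a narrower window or a closer match admits fewer regions by construction. Leaving out regions at CAT, and cutting both lists of an overlap to equal length, were alternatives chosen once results were known, after seeing the data. Depth is unknown, so a region missing from a list was not detected at its threshold, which does not show that the site was free of the factor.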

Other observations

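The stretch of 7.30 kb between the windows held regions that no count above includes. Wholly within it were 2 PR regions under vehicle, 3 PR regions under P4, 2 POLR3A regions under vehicle and 0 POLR3A regions under P4. Of these, 3 lay together: the PR vehicle region at chr11:34564865-34565244 had −log10 q 2.61, the PR P4 region at chr11:34564835-34565024 had 5.13 and the POLR3A vehicle region at chr11:34565006-34565197 had 1.87. The PR pair at chr11:34569612-34569879 under vehicle and chr11:34569600-34569828 under P4 had 4.59 and 5.08. A further PR P4 region, at chr11:34566414-34566707, had 2.67, and the second POLR3A vehicle region is that at the LINC02707 start.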
